A study of Mus musculus with 15 samples.

Results

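Old WT livers (600 days) were compared with young WT livers (90 days) over every gene expressed in whole liver, with hepatocyte and immune gene groups described side by side. The members were the 5 libraries labelled old WT, numbered 1, 4, 5, 7 and 10, and the 5 labelled young WT, numbered 1, 2, 3, 4 and 6, which made 10 of the 15 libraries in the table. All 10 came from mice of the WT genotype at the S6K1 locus, with no allele or agent other than age between the groups. The remaining 5 libraries, from old S6K1 knockout mice, were not part of the contrast in the main fit. They entered the filter on low counts, the scaling and the estimate of the spread between animals. Each library was made from 1 flash-frozen liver homogenate of a female mouse, so every cell type of the organ contributed to each value. Levels are given as CPM, the counts of a gene scaled to a common library size and composition, and differences as log2 fold changes of old WT over young WT with the standard error (SE) of the fit. Where 10 values are listed, they stand in the order of the library numbers above, young WT first.

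The liver parenchyma consists largely of hepatocytes, which make plasma proteins, bile acids and lipoproteins, detoxify drugs and steroids, and dispose of nitrogen as urea. Many of these functions differ between the sexes in rodents, because the pattern of growth hormone secretion sets which cytochrome P450, sulfotransferase and urinary protein genes are transcribed, through the transcription factor STAT5. Other functions are split along the lobule, with nitrogen and gluconeogenic enzymes around the portal vein and xenobiotic enzymes and glutamine synthetase around the central vein. Ageing liver is also known to gather leukocytes, among them plasma cells and monocyte-derived macrophages beside the resident Kupffer cells.

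Total counts ran from 21801754 to 38065359 in young WT and from 27063911 to 31990482 in old WT, with young WT 6 the shallowest. Hepatocyte markers were abundant in every library, and Alb (albumin) read 60000 CPM in young WT 6 and 115000 CPM in old WT 7, the lowest and highest values of the 10. The first principal component (31.8% of variance) placed the young WT libraries between -49.1 and -22.1 and the old WT libraries between 11.3 and 20.3. Old WT 7 stood apart on the second component (13.1%) at -44.8, against -0.323 to 21.8 in the other old WT libraries. The study used females, and Xist was present while the Y-linked Ddx3y and Kdm5d had no counts in each of the 10 libraries. Of the other Y-linked genes checked, Eif2s3y had 2 counts in all young WT libraries and 1 in all old WT libraries. Uty read 0.259 to 0.579 CPM in young WT and 0.356 to 0.469 CPM in old WT, and the source of these reads was not tested. Of the markers of tissues that a dissected liver could carry along, 1 of 20 pancreatic acinar genes and 2 of 14 skeletal muscle genes had enough counts to be tested, and none of them was called. Summed red cell transcripts were 47.5 to 111 CPM in young WT and 80.3 to 166 CPM in old WT, with 0 of 7 called. For the main values that rest on old WT 7 or young WT 6, the value without that library is also given.

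Of 14258 genes with enough counts, 18.8% passed an edgeR adjusted p of 0.05. Higher calls made up 9.92% of the tested genes and lower calls 8.91%, and in 11.4% the CPM of the 5 old and the 5 young livers did not overlap. The higher calls were larger in size, with a median log2 change of 0.64 against 0.47 for the size of the lower ones, and 394 of them at least doubled (a log2 change of 1 or more) while 165 lower calls at least halved. Very abundant transcripts were among both, since 157 higher and 178 lower genes averaged at least 100 CPM over the 10 livers. In the union of the hepatocyte and metabolic lists 135 of 799 tested genes rose (16.9%) and 91 fell (11.4%), with a median log2 change of 0.03 against 0.01 for all tested genes. In the union of the immune lists 104 of 379 rose (27.4%) and 7 fell (1.85%), with a median of 0.45. Only these 379 of 571 immune list genes had enough counts, against 799 of 850 in the metabolic lists. A gene could pass that filter through the old WT or knockout libraries alone, so the immune share and median describe the tested genes only. The same limit holds for each immune list below. Without young WT 1 the calls over all genes numbered 1748 and those in the immune lists 64, the latter being 71 without young WT 2, and the metabolic falls were 60 without old WT 1. List counts under 3 often moved by 1 or 2 when a library was left out. The bars of called shares give each list in both directions, to be read beside the 9.92% and 8.91% of all genes. In a whole-organ sample fewer cells of a type and less RNA per cell cannot be told apart, and this holds for each cell type marker below.

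**Figure D1:**
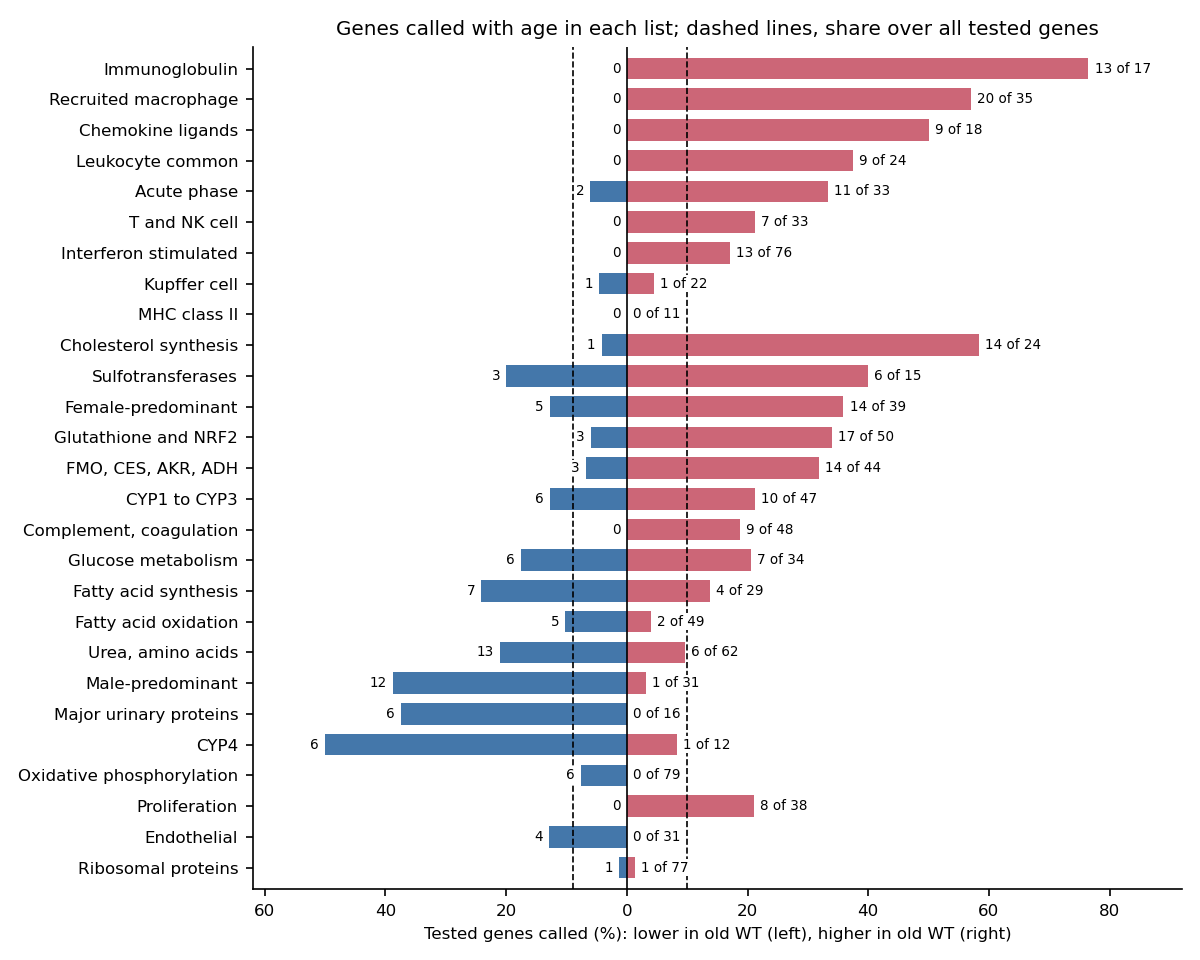
Share of the tested genes of each list called higher (red, right) or lower (blue, left) in old WT livers, in percent, with the number of genes called beside each bar. Dashed lines mark the shares over all 14258 tested genes (9.92% higher and 8.91% lower). Immunoglobulin (13 of 17) and cholesterol synthesis (14 of 24) extend furthest to the right, and the CYP4 list (6 of 12) furthest to the left. Only 17 of 152 immunoglobulin genes had enough counts to be tested, and old libraries alone could pass a gene.

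Genes known to be expressed more in female than in male liver were called in large shares. Of 39 tested female-predominant genes 14 rose (35.9%, against 9.92% of all genes) and 5 fell (12.8%, against 8.91%). The list median of the log2 change was 0.81. Of 31 male-predominant genes 1 rose (3.23%) and 12 fell (38.7%), with a median of -0.59. The summed female-predominant level did not rise with the number of calls. It was 17200 to 23200 CPM in young WT and 13200, 13400, 13500, 11300 and 24500 CPM in old WT, below the young range except in old WT 10. A1bg, which encodes the plasma protein alpha-1-B glycoprotein (Ensembl gene at chr15:60749144-60752825, minus strand, mm9), read 59.4, 11.1, 54.3, 85.2 and 278 CPM in young WT and 1820, 1950, 1660, 1370 and 5090 CPM in old WT. The lowest old liver thus exceeded the highest young one several times over, and the log2 change was 4.61 ± 0.85 (SE), with an adjusted p of 0.00237. Hao2, a peroxisomal hydroxy acid oxidase, gave 1.79, 0.305, 3.13, 2.17 and 10.3 CPM in young WT and 94.2, 83.0, 87.5, 28.7 and 72.1 CPM in old WT. Here old WT 7 was the lowest of its group and still above every young liver (log2 change 4.43 ± 0.63). Prlr, the prolactin receptor, and Slc22a27, an organic anion transporter, rose by smaller amounts, from 321 ± 70.9 to 590 ± 174 CPM and from 19.5 ± 5.45 to 53.2 ± 10.5 CPM (mean ± SD, n = 5). Abcd2, a peroxisomal fatty acid transporter, rose by 0.72 ± 0.16 on the log2 scale.

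The female-predominant list did not move as one. Sult3a1, an amine sulfotransferase of female liver (chr10:33583741-33599322, plus strand, mm9), read 155, 95.5, 271, 109 and 211 CPM in young WT and 3.25, 6.22, 8.92, 1.32 and 10.4 CPM in old WT. Every old liver was far below every young one, and the log2 change of -4.80 ± 0.55 (adjusted p = 0.000108) was the largest fall of the whole comparison. The other 4 that fell were Cyp2c40, Cyp4a10, Cyp4a14 and Cyp39a1, with log2 changes of -0.70, -1.13, -1.27 and -1.48. Cd36 (1.09 ± 0.39) and Cyp3a41a, which has a near-identical copy (1.75 ± 0.61), missed the threshold, with adjusted p of 0.0636 and 0.0544. Both passed without old WT 7, at adjusted p of 0.0286 for Cd36 and 0.0263 for Cyp3a41a. They passed also without 1 young library, Cd36 without young WT 6 (0.00143) and Cyp3a41a without young WT 3 (0.0284). Cux2, a repressor of male-predominant genes in female liver, was not called (0.71 ± 0.37, adjusted p = 0.192) and passed only without young WT 2 (0.02).

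Among the male-predominant genes falls outnumbered rises. Cyp2d9, a steroid 16-alpha-hydroxylase, read 40.9, 54.6, 30.0, 81.1 and 19.5 CPM in young WT and 6.47, 4.2, 3.22, 1.98 and 1.91 CPM in old WT, without overlap (log2 change -3.66 ± 0.49). Susd4, a complement regulator, fell by 3.08 ± 0.46 and likewise did not overlap. The major urinary proteins, pheromone carriers secreted in urine, gave 0 rises and 6 falls among 16 tested (median -1.31). Mup3 read 1840, 1680, 1610, 2360 and 1010 CPM in young WT and 515, 288, 619, 98.1 and 278 CPM in old WT, a log2 change of -2.24 ± 0.44 with old WT 7 lowest. Mup11 and Mup7 fell, with log2 changes of -3.29 ± 0.56 and -2.04 ± 0.49, and Mup20 (-1.0 ± 0.50, adjusted p = 0.174) was not called. Without old WT 7, in which the summed urinary protein level was 121 CPM against 600 to 1080 CPM in the other old livers, 8 of the 16 fell instead of 6. The genes of this family are near-identical copies, so counts may be split or lost between them and the single-gene values are uncertain. The 1 male-predominant gene that rose was Ces2e, a carboxylesterase (0.74). Cyp4a12a, an arachidonic acid hydroxylase of male liver with too few counts for the fit, had 62, 22, 8, 20 and 10 counts in young WT and 2, 1, 0, 0 and 1 in old WT (exact two-sided permutation test, p = 0.00794, the smallest that 5 against 5 can give).

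Receptors for the hormones that govern these programmes also changed. Ghr, the growth hormone receptor, read 192, 210, 388, 363 and 357 CPM in young WT and 507, 580, 477, 444 and 641 CPM in old WT. The groups did not overlap (log2 change 0.81 ± 0.18, adjusted p = 0.00618). Esr1, the oestrogen receptor, rose by 0.70 ± 0.22 (adjusted p = 0.0391) and lost its call in the fits without young WT 2 (0.0769), young WT 3 (0.0506), old WT 1 (0.0641), old WT 4 (0.0704), old WT 7 (0.0618) or old WT 10 (0.0749). Of the targets of growth hormone signalling, Igf1 (log2 change 0.07 ± 0.15), Cish (0.01 ± 0.37) and Socs2 (-0.33 ± 0.43) were not called. They do not stand for every gene of this axis, since others, Igfals among them, rose. In the list of insulin, growth hormone and IGF genes 5 of 31 rose (Prlr, Ghr, Igfals, Fgfr4 and Stat5a) and 1 fell (Trib3). These shares were 16.1%, against 9.92% of all genes, and 3.23%, against 8.91%.

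**Figure D2:**
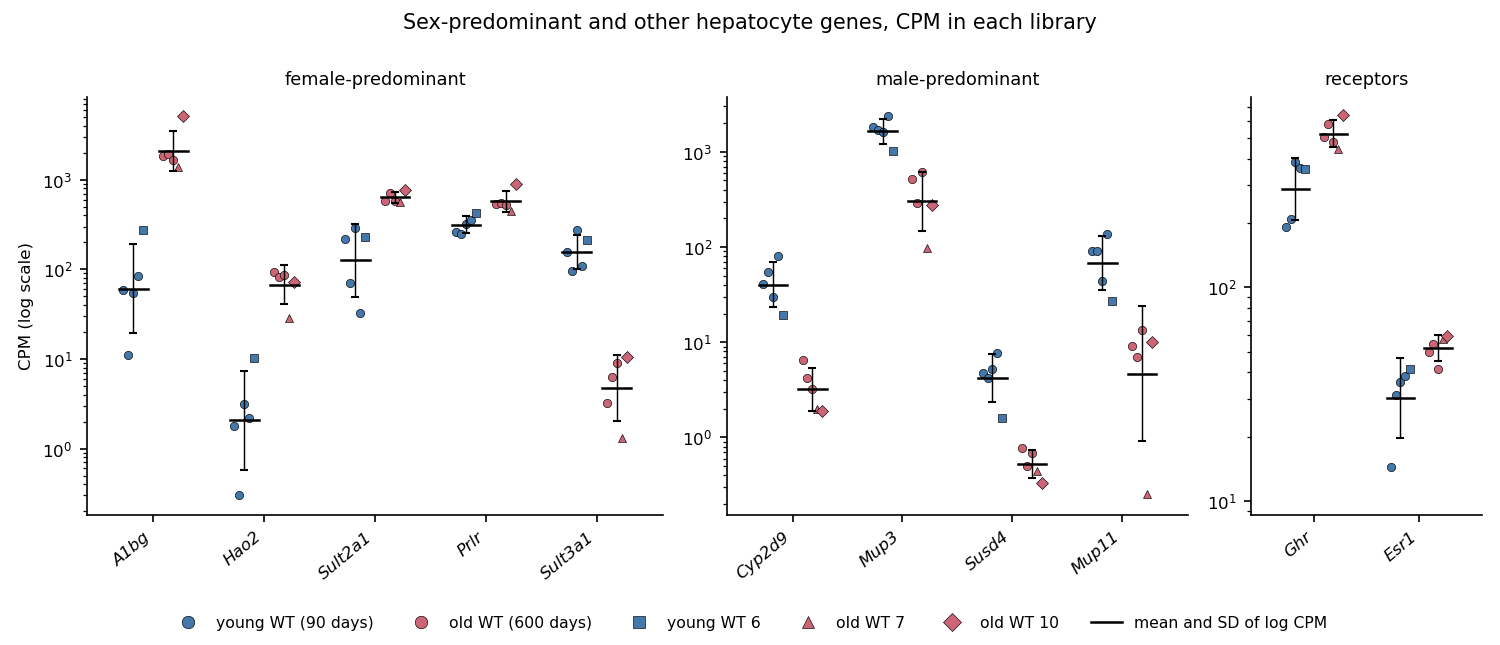
CPM (log scale) of 11 genes in each of the 5 young WT (blue) and 5 old WT (red) livers, in panels for female-predominant genes, male-predominant genes and hormone receptors. Lines are the mean and bars 1 SD of the log values, and squares, triangles and diamonds mark young WT 6, old WT 7 and old WT 10. The groups are separate for all 11 genes, but the rule by which genes were named favoured those without overlap. Esr1 is separate only narrowly, at 41.6 CPM in the highest young and 41.7 CPM in the lowest old liver. Sult3a1 is the only female-predominant gene drawn that is lower in old WT, and the other falls of that list are not drawn.

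Promoters of sex-predominant, clock and interferon genes were searched for short motifs. The 3 windows printed belong to A1bg and Sult3a1, a female-predominant rise and fall that kept their calls whichever library was left out, and to Gm129, the called clock gene with the largest fall. Windows of 300 bases reach from upstream of the start site into the gene in RefSeq on GRCm38.p6, written 5′ to 3′ on the strand of the gene, and capitals mark the motif on either strand.
A1bg (chr15:60921221-60921520, minus strand): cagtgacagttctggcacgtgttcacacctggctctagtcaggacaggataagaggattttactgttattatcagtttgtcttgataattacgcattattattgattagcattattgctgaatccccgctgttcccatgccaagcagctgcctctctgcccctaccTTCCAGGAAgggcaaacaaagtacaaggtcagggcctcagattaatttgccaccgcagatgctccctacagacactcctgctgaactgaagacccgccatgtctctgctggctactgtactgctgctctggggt
Sult3a1 (chr10:33857472-33857771, plus strand): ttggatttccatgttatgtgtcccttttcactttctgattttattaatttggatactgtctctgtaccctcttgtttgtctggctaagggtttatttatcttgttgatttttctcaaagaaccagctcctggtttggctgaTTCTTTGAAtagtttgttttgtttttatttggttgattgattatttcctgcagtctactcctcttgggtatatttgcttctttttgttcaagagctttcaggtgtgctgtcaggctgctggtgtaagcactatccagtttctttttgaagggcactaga
Gm129 (chr3:95882179-95882478, minus strand): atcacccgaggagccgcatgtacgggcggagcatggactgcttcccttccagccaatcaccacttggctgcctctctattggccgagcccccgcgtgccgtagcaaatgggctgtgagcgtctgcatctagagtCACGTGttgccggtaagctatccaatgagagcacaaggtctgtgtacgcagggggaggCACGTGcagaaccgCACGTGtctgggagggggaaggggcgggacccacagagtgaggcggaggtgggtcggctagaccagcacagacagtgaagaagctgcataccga
The first 2 carry the STAT5 letters TTCNNNGAA, the third 3 copies of the E-box CACGTG. TTCNNNGAA stood in 3 of 11 windows of female-predominant genes that rose, 1 of 2 that fell and 2 of 15 that were not called. It stood in 0 of 11 windows of male-predominant genes that fell and 3 of 13 that were not called, against 9.55% of 27025 genes with a window. Both A1bg, which rose, and Sult3a1, which fell, hold these letters. CACGTG was found in 8.09% of all genes and, among called clock genes, in Cry1 and in Gm129. The interferon element GAAANNGAA was found in 4 of 9 interferon genes that rose, in 28 of 45 that were not called, and in 9.76% of all genes. A match of letters is not a bound site.

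Sulfotransferases, which conjugate steroids, thyroid hormone and xenobiotics, had 6 rises and 3 falls among 15 tested (median 1.33), and these counts were the same in all 10 fits that left out 1 library. Sult2a1, a hydroxysteroid sulfotransferase, read 216, 70.2, 286, 32.3 and 232 CPM in young WT and 571, 713, 580, 567 and 773 CPM in old WT. The old livers lay in a narrow band above a scattered young group (log2 change 1.94 ± 0.41, adjusted p = 0.0048). Sult1e1, the oestrogen sulfotransferase, rose from 1.12 ± 1.04 to 14.5 ± 6.70 CPM (3.67 ± 0.81) without overlap. Sult2a2, Sult2a3, Sult2a5 and Sult1c2 were the other rises, with log2 changes of 2.17, 5.42, 3.47 and 1.33. Sult2a3 was 10.9 CPM in old WT 7 and 155 to 208 CPM in the other old livers, against 0.183 to 12.3 CPM in young WT, and its log2 change was 5.73 without old WT 7. The falls were Sult3a1, its neighbour Gm4794 (-4.01 ± 0.65) and Sult5a1 (-1.47). The Sult2a genes are close paralogues in a cluster on chromosome 7, as are Sult3a1 and Gm4794 on chromosome 10, and reads shared between copies make single-gene values less certain.

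Cytochrome P450 enzymes of families 1 to 3, which oxidise drugs and steroids, went both ways. Among 47 tested, 10 rose (21.3%, against 9.92% of all genes) and 6 fell (12.8%, against 8.91%). Cyp2c54 read 128, 155, 237, 297 and 142 CPM in young WT and 12.3, 25.6, 36.2, 9.90 and 9.48 CPM in old WT, a separation in every liver (log2 change -3.35 ± 0.58). Cyp2a5, a coumarin hydroxylase, rose from 155 ± 50.6 to 315 ± 65.6 CPM (1.03 ± 0.21). Cyp2e1, the ethanol-inducible enzyme, gave 8100, 7740, 8990, 8190 and 8490 CPM in young WT and 6030, 7350, 6700, 3040 and 5460 CPM in old WT. Its groups did not overlap, yet the adjusted p was 0.0622 in the fit and 0.0484 without old WT 4. Cyp1a2 (-0.15 ± 0.24) and Cyp3a11 (-0.85 ± 0.40, adjusted p = 0.155, or 0.0361 without old WT 7) were not called. Cyp2f2 fell by 0.75 ± 0.23 and missed the threshold in 7 of the 10 fits, those without young WT 1 (0.0619), young WT 2 (0.0565), young WT 4 (0.0536), young WT 6 (0.0544), old WT 1 (0.0753), old WT 7 (0.0564) or old WT 10 (0.0703). The number of P450 rises moved to 5 without young WT 1 or 2 or old WT 5 or 10, to 6 without young WT 3, 4 or 6, to 4 without old WT 4, and to 7 and 13 without old WT 1 and old WT 7. It was 5 under limma voom.

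Por, the reductase that supplies electrons to these P450 enzymes, fell from 594 ± 178 to 324 ± 75 CPM (log2 change -0.88 ± 0.21, adjusted p = 0.0089), with overlap between the highest old livers and young WT 6. The other phase 1 enzymes rose more often, 14 of 44 (31.8%, against 9.92% of all genes) against 3 that fell (6.82%, against 8.91%). Adh1, the class I alcohol dehydrogenase, read 710, 673, 655, 765 and 763 CPM in young WT and 1280, 1440, 1460, 858 and 1180 CPM in old WT, with no overlap (0.80 ± 0.13). The falls besides Por were the neighbouring carboxylesterases Ces3b (-1.67 ± 0.24) and Ces3a (-1.13 ± 0.33), the latter lost without young WT 4 (adjusted p = 0.0567) or old WT 10 (0.0509). Without old WT 7 the list had 6 falls and without young WT 6 it had 5.

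Glutathione and NRF2-responsive genes, which neutralise electrophiles and oxidants, gave 17 rises and 3 falls among 50, with 13 to 17 rises when any 1 library was left out. Mgst3, a microsomal glutathione transferase, read 7.77, 7.33, 7.82, 9.67 and 8.88 CPM in young WT and 22.5, 23.9, 26.3, 14.9 and 17.5 CPM in old WT. The groups were well separated (log2 change 1.34 ± 0.14, adjusted p = 7.84e-05). Gsta2 (1.64 ± 0.19), Gsta3 (0.88 ± 0.15), Gstm1 (0.68 ± 0.14) and Gstm3 (1.86 ± 0.40), cytosolic glutathione transferases, also rose without overlap. Gclc, the catalytic subunit of the enzyme that limits glutathione synthesis, rose from 199 ± 78 to 450 ± 87 CPM (1.18 ± 0.21), and only young WT 6 (336 CPM) exceeded an old liver, old WT 7 (305 CPM). Nqo1, a quinone reductase, rose by 0.44 ± 0.11, and Hmox1, haem oxygenase 1, showed 0.15 ± 0.18 without a call. The 3 falls were Gsr, Gstt2 and Srxn1 (log2 changes -0.33, -0.39 and -0.69), which was 1 fall in the fits without young WT 1, 2 or 6 or old WT 1, 4, 5 or 7.

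Membrane transporters of bile acids and organic ions had 8 rises (29.6%, against 9.92% of all genes) and 3 falls (11.1%, against 8.91%) among 27. Abcc4, a basolateral export pump, read 5.03, 2.96, 5.77, 4.07 and 7.46 CPM in young WT and 18.8, 20.7, 15.4, 12.4 and 20.9 CPM in old WT, without overlap (log2 change 1.81 ± 0.24). Slc22a29, an organic anion transporter next to Slc22a27, rose by 2.45 ± 0.31. Slc10a1, the sodium-dependent bile acid uptake carrier, fell from 791 ± 33.6 to 621 ± 75.9 CPM (-0.35 ± 0.10), and lost its call without young WT 2 (adjusted p = 0.0561) or young WT 3 (0.0503). The other falls were Abcc3 (-0.43) and Slco1a1 (-1.81), 1 fall remaining in number without young WT 2. Glucuronosyltransferases had 2 rises (Ugt1a7c and Ugt2b34) and 0 falls among 17, and the rises made up 11.8%, against 9.92% of all genes.

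Cholesterol synthesis had 14 rises among 24 tested, with 1 fall (Hsd17b7) and a median log2 change of 0.97. Cyp51, the lanosterol demethylase, read 29.9, 29.6, 38.1, 48.0 and 57.2 CPM in young WT and 62.3, 174, 159, 63.4 and 68.7 CPM in old WT. All old livers were above all young ones, and old WT 4 and old WT 5 stood far above the other 3 (log2 change 1.38 ± 0.36, adjusted p = 0.0167). Fdps, farnesyl diphosphate synthase, gave 8, 8.03, 8.74, 13.3 and 13 CPM in young WT and 17.7, 71.6, 51.3, 21.1 and 15.2 CPM in old WT. The same 2 livers were highest, and the call (1.79 ± 0.47, adjusted p = 0.0161) was lost without old WT 4 (0.0504). Mvd (1.83 ± 0.54) and Sqle (1.61 ± 0.48), a decarboxylase of the mevalonate pathway and squalene epoxidase, followed the same pattern, and Mvd was lost without young WT 1 (0.063), young WT 2 (0.0579), young WT 3 (0.0555), old WT 4 (0.0734) or old WT 5 (0.0655). Sqle was lost without young WT 1 (0.0722), young WT 2 (0.0716), young WT 3 (0.0587), young WT 4 (0.0531), old WT 4 (0.0916) or old WT 5 (0.0775). The summed level of the list was 1740 to 2990 CPM in old WT and 1210 to 1560 CPM in young WT, and the 2 highest sums were those of old WT 4 (2990 CPM) and old WT 5 (2790 CPM). The number of rises was 6 without old WT 4, 8 without old WT 5 or young WT 2, 7 without young WT 1 or under limma voom and 15 without old WT 7.

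Fatty acid synthesis showed no common direction (median -0.05). Among 29 genes 4 rose (13.8%, against 9.92% of all genes) and 7 fell (24.1%, against 8.91%). Scd1, the stearoyl-CoA desaturase that makes monounsaturated fatty acids, read 1470, 1420, 968, 796 and 578 CPM in young WT and 1870, 2300, 2850, 4890 and 4560 CPM in old WT. Each old liver exceeded each young one, and the log2 change was 1.65 ± 0.35 (adjusted p = 0.00475). The synthase Fasn (0.07 ± 0.32), the elongase Elovl6 (-0.05 ± 0.30) and the regulator Srebf1 (0.57 ± 0.37) were not called. The other rises were Fads1, Dgat2 and Elovl1 (0.63, 0.54 and 0.45). Insig2, an anchor that holds sterol regulatory proteins in the endoplasmic reticulum, fell from 1060 ± 397 to 396 ± 123 CPM (-1.42 ± 0.27) without overlap. Lpin2, a phosphatidate phosphatase, fell by 0.73 ± 0.20 and was lost without old WT 1 (adjusted p = 0.0522), a fit in which 4 genes of the list fell instead of 7.

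Most of the 49 fatty acid oxidation genes are targets of the nuclear receptor PPAR-alpha. Of the 49, 2 rose (4.08%, against 9.92% of all genes) and 5 fell (10.2%, against 8.91%), with a median of -0.13. Cpt1a, the carnitine palmitoyltransferase that admits long-chain fatty acids to mitochondria, read 868, 927, 987, 1060 and 1060 CPM in young WT and 665, 595, 618, 577 and 716 CPM in old WT. The groups were tight and did not overlap (log2 change -0.63 ± 0.14, adjusted p = 0.00749). Acaa1a, a peroxisomal thiolase, fell by 0.70 ± 0.19, and Acot12, Ppargc1a and Ehhadh were the other falls (-0.43, -0.98 and -1.44). Without old WT 1, 4 or 5 the list had 3 falls. Ppara itself (-0.09 ± 0.21) and Fgf21 (-0.50 ± 0.56) were not called. The rises were Acot3 (0.96) and Abcd2.

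The CYP4A fatty acid omega-hydroxylases, abundant P450 enzymes, fell in most tested cases. Of 12 tested CYP4 genes 6 fell and 1 (Cyp4f18) rose, and the summed level of the list was 14200 to 20000 CPM in young WT and 5840 to 11700 CPM in old WT. Cyp4a14 (chr4:115158805-115168747, minus strand, mm9) read 14000, 12500, 9620, 9160 and 11100 CPM in young WT and 4280, 3520, 4160, 3620 and 7730 CPM in old WT. Old WT 10 was the nearest to the young livers but remained below them (log2 change -1.27 ± 0.37, adjusted p = 0.0244). This call was lost without young WT 1 (0.0586), old WT 1 (0.054), old WT 4 (0.061) or old WT 5 (0.0546). Cyp4a31 and Cyp4a32, 2 neighbours in the same cluster, fell, with log2 changes of -3.0 ± 0.37 and -1.88 ± 0.24, and kept their calls in every leave-out fit. Cyp4a10 fell from 4440 ± 477 to 2030 ± 706 CPM (-1.13 ± 0.28), and Cyp4f14, a leukotriene hydroxylase of another branch, was not called (-0.10 ± 0.19). Without young WT 1 the list had 3 falls. The CYP4A genes are similar in sequence, which limits how surely reads are assigned among them.

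Lipid droplet and fatty acid uptake genes gave 3 rises (9.38%, against 9.92% of all genes) and 5 falls (15.6%, against 8.91%) among 32. Cidec, which enlarges lipid droplets, read 119, 46.7, 14.5, 17.2 and 31.7 CPM in young WT and 2.78, 3.70, 4.35, 1.36 and 12.8 CPM in old WT. The young livers were scattered over a wide range and all exceeded the old ones (log2 change -3.21 ± 0.64, adjusted p = 0.0036). Slc27a1, a fatty acid transport protein, fell from 48.5 ± 9.62 to 17 ± 4.63 CPM (-1.51 ± 0.25). The other falls were Pnpla2, the adipose triglyceride lipase (-1.23), Lipe (-0.42) and Cideb (-0.21). Vldlr, the very low density lipoprotein receptor, rose from 14.9 ± 5.97 to 46.5 ± 13.6 CPM (1.64 ± 0.28) without overlap, and Fitm1 and Plin3 rose by 2.73 and 0.38. Plin2, the droplet coat protein whose transcript follows stored lipid, was not called (-0.42 ± 0.28), and Pparg (0.52 ± 0.18, adjusted p = 0.0528) passed without young WT 6 (0.0253) or old WT 7 (0.0492). Falls numbered 3 without young WT 1, 2 or 4 or old WT 1, 4 or 5, and rises 6 without young WT 6 and 5 without old WT 7.

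**Figure D3:**
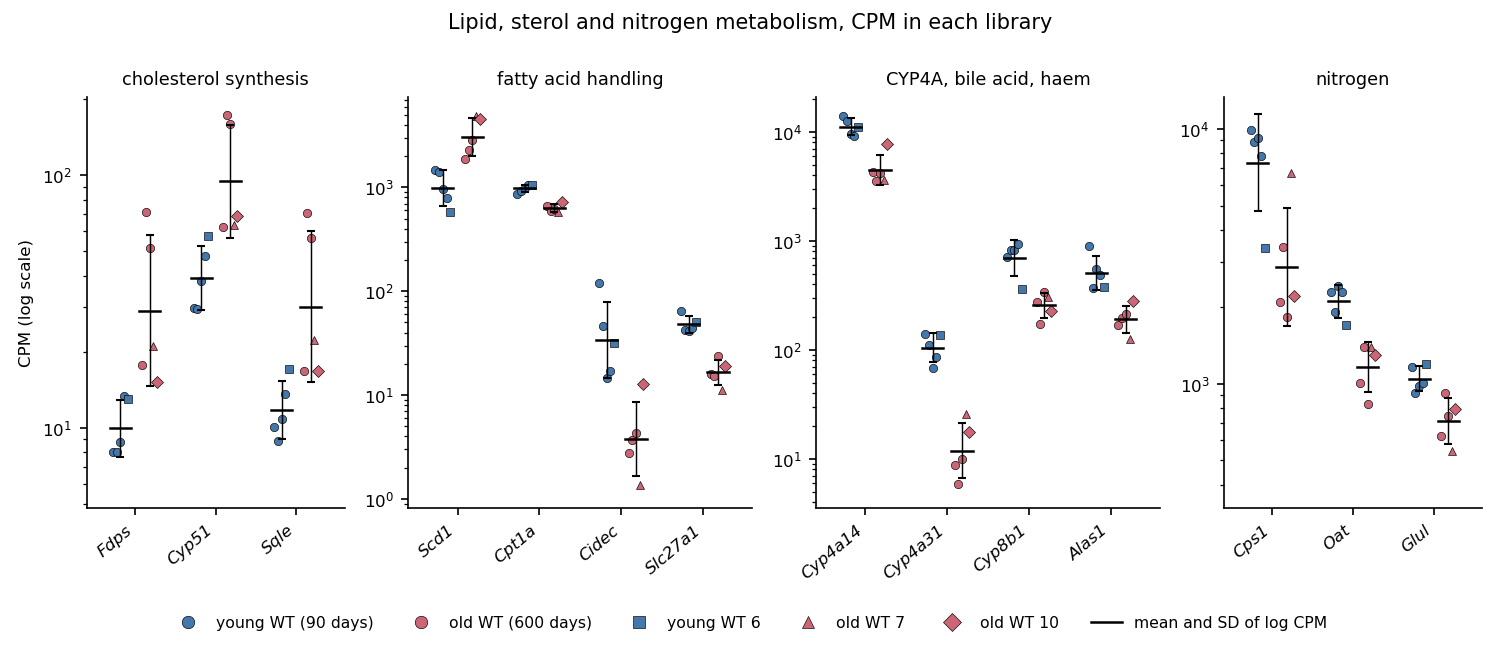
CPM (log scale) in each liver for genes of cholesterol synthesis, fatty acid handling, CYP4A, bile acid and haem synthesis, and nitrogen metabolism, with young WT in blue and old WT in red. Lines are the mean and bars 1 SD of the log values, and squares, triangles and diamonds mark young WT 6, old WT 7 and old WT 10. Among the cholesterol genes old WT 4 and 5 lie above the other old livers, and for Cps1 young WT 6 (3410 CPM) and old WT 7 (6700 CPM) lie nearer to the opposite group than to their own.

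Bile acid synthesis had 3 rises and 3 falls among 20. Cyp8b1, the sterol 12-alpha-hydroxylase that directs synthesis to cholic acid, read 708, 831, 826, 941 and 363 CPM in young WT and 272, 173, 337, 306 and 226 CPM in old WT. Young WT 6 was close to the old livers but did not overlap them (log2 change -1.48 ± 0.27, adjusted p = 0.00231). Cyp7a1, the rate-limiting enzyme of the classical pathway, spread widely in both groups and was not called (-0.62 ± 0.45, adjusted p = 0.354), and neither were Cyp7b1 (-0.10 ± 0.19) and Nr0b2 (0.56 ± 0.33). Fgfr4, the receptor for the intestinal hormone FGF15 that represses this pathway, rose from 28.5 to 44.8 CPM (0.65 ± 0.08). The other rises were Cyp46a1 and Akr1d1 (1.22 and 0.42), and the other falls Cyp27a1 and Cyp39a1 (-0.58 and -1.48).

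In haem and iron handling 3 of 29 genes rose (10.3%, against 9.92% of all genes) and 2 fell (6.9%, against 8.91%). Alas1, the first enzyme of haem synthesis, read 901, 371, 547, 486 and 377 CPM in young WT and 169, 195, 215, 127 and 279 CPM in old WT, with no overlap (log2 change -1.45 ± 0.27). Tfrc, the transferrin receptor, fell by 0.86 ± 0.23 and was lost without old WT 1 (adjusted p = 0.0509). Slc40a1, the iron exporter ferroportin, and Trf, transferrin, rose by 0.75 ± 0.15 and 0.62 ± 0.11, and Tmprss6 rose by 0.29. Hamp, the iron hormone hepcidin, was not called (0.36 ± 0.17, adjusted p = 0.159). Without old WT 7 the list had 5 rises.

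Glucose metabolism was called in both directions. Among 34 genes 7 rose (20.6%, against 9.92% of all genes) and 6 fell (17.6%, against 8.91%). Gys2, the liver glycogen synthase, read 150, 188, 171, 217 and 172 CPM in young WT and 115, 101, 110, 115 and 127 CPM in old WT, without overlap (log2 change -0.66 ± 0.11, adjusted p = 0.00152). The kinases Pfkfb1 and Pfkfb3, which set the level of an allosteric activator of glycolysis, fell, with log2 changes of -0.70 ± 0.18 and -0.73 ± 0.18. Pklr, the liver pyruvate kinase, rose from 48.7 ± 12.2 to 91.8 ± 27.4 CPM (0.92 ± 0.21), with old WT 7 (56.2 CPM) inside the young range. The gluconeogenic Pck1 (-0.08 ± 0.30) and G6pc (0.14 ± 0.30) were not called.

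Of 62 urea cycle and amino acid genes 13 fell (21.0%, against 8.91% of all genes) and 6 rose, with a median of -0.20. Cps1, carbamoyl phosphate synthetase and the entry enzyme of the urea cycle, read 9880, 8880, 9220, 7810 and 3410 CPM in young WT and 2100, 3440, 1830, 6700 and 2200 CPM in old WT. Young WT 6 lay among the old livers and old WT 7 just below the other young ones, so the groups overlapped (log2 change -1.27 ± 0.35, adjusted p = 0.0197). The log2 change was -1.7 without old WT 7 and -1.45 without young WT 6, and the call was lost without old WT 1 (0.0523) or old WT 5 (0.0502). The summed level of the list showed the same 2 libraries, with 60600 to 72700 CPM in young WT 1 to 4 and 36500 CPM in young WT 6, and 31300 to 36800 CPM in old WT 1, 4, 5 and 10 and 57300 CPM in old WT 7. Without young WT 6 the list had 20 falls and without old WT 7 it had 22, whereas it had 8 without young WT 1, 7 without young WT 3 or old WT 5, and 6 without old WT 1.

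Other nitrogen genes separated more cleanly than Cps1. Oat, ornithine aminotransferase, read 2290, 1910, 2420, 2280 and 1700 CPM in young WT and 1010, 1390, 834, 1390 and 1300 CPM in old WT, without overlap (log2 change -0.84 ± 0.16, adjusted p = 0.00266). Glul, the glutamine synthetase of the last hepatocytes before the central vein, fell from 1050 ± 118 to 724 ± 146 CPM (-0.54 ± 0.14). Bhmt (-1.35) and Mat1a (-1.02), of methionine metabolism, and Tdo2 (-0.91), of tryptophan breakdown, were among the other falls. Glud1, glutamate dehydrogenase, and Ido2 rose by 0.51 ± 0.11 and 1.01 ± 0.16, without overlap. Ass1 (-0.52 ± 0.36, adjusted p = 0.33, or 0.0207 without old WT 7), Hal (-0.15 ± 0.25), Sds (-0.47 ± 0.35) and Gls2 (0.17 ± 0.23) were not called. Rises numbered 3 without young WT 2 or old WT 1 or 5.

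**Figure D4:**
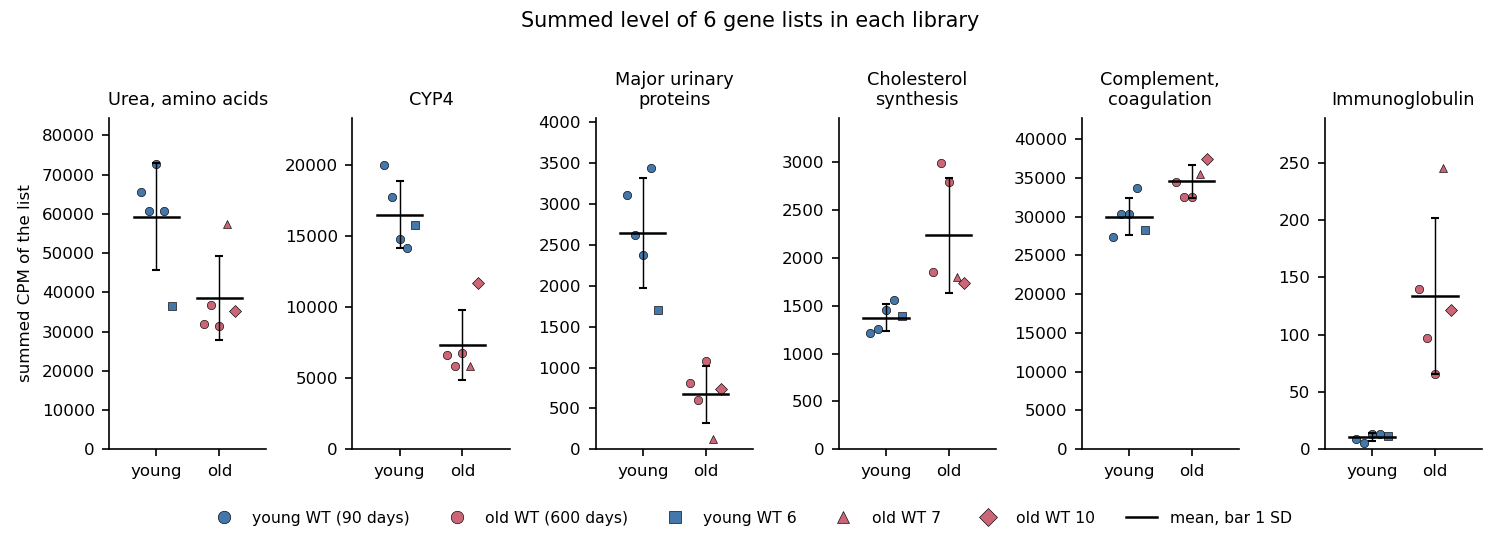
Summed CPM of all genes of 6 lists in each liver, young WT in blue and old WT in red, on linear axes that start at 0, with lines for the mean and bars for 1 SD (n = 5). Urea and amino acid genes show young WT 6 (36500 CPM) among the old livers and old WT 7 (57300 CPM) apart from the other old ones, whereas the CYP4, urinary protein, cholesterol and immunoglobulin sums do not overlap between the groups.

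Genes of both lobular zones were called in both directions. Of 34 pericentral genes 4 rose (11.8%) and 6 fell (17.6%), with a median of -0.01. Of 28 periportal genes 3 rose (10.7%) and 4 fell (14.3%), with a median of -0.02. Over all genes 9.92% rose and 8.91% fell. The summed pericentral level was 20000 to 23200 CPM in young WT and 13400 to 20700 CPM in old WT, where only old WT 4 reached the young range. The summed periportal level was 78600 to 130000 CPM in young WT and 91200 to 145000 CPM in old WT. Among pericentral genes Glul, Oat and Cyp2c54 fell while Cyp2a5 and Gstm3 rose. The Wnt target Axin2 was not called (-0.43 ± 0.22), nor were the endothelial Wnt signals Wnt2 (-0.56 ± 0.24) and Rspo3 (-0.23 ± 0.12). The periportal falls were Arg1, Cyp2f2, Cps1 and Apoa4, and their number depended on single libraries, with 0 falls without old WT 1, 1 without young WT 1, young WT 2 or old WT 5, 2 without young WT 4 or old WT 4 or 10, and 8 without old WT 7. Ctsc, the protease cathepsin C, was the largest periportal rise (0.86 ± 0.17).

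Of 79 nuclear oxidative phosphorylation genes 0 rose and 6 fell (7.59%, against 8.91% of all genes, median -0.11), and 63 of the 79 log2 changes were under 0. Cycs, cytochrome c, read 110, 98.0, 107, 86.7 and 93.3 CPM in young WT and 55.8, 64.2, 58.4, 80.6 and 80.9 CPM in old WT, without overlap (log2 change -0.54 ± 0.13, adjusted p = 0.00971). Ndufs1, of complex I, fell by 0.25 ± 0.06. The number of falls was 15 without young WT 6, 3 without young WT 3 or old WT 10, and 2 without young WT 1, young WT 2, old WT 1 or old WT 4. The mitochondrially encoded mt-Co3, a cytochrome oxidase subunit, went the other way (10800 ± 785 to 13200 ± 939 CPM, 0.29 ± 0.10, adjusted p = 0.0444) and kept its call in only the fits without young WT 3 or old WT 7. Without the other libraries its adjusted p was 0.0886 (young WT 1), 0.0912 (young WT 2), 0.0709 (young WT 4), 0.0628 (young WT 6), 0.0581 (old WT 1), 0.0779 (old WT 4), 0.08 (old WT 5) and 0.0926 (old WT 10).

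Of 24 clock genes 4 rose (16.7%, against 9.92% of all genes) and 2 fell (8.33%, against 8.91%). Npas2, a partner of BMAL1, read 9.32, 8.34, 7.99, 6.69 and 5.09 CPM in young WT and 18.8, 17.5, 12.5, 13.7 and 12.1 CPM in old WT (log2 change 0.99 ± 0.21). Nfil3 (1.08 ± 0.22) rose likewise without overlap, and Cry1 rose by 0.69. Nr1d1, the repressor REV-ERB-alpha, fell by 1.46 ± 0.46 and lost its call without young WT 2 (adjusted p = 0.0941), young WT 3 (0.052), young WT 4 (0.0555), old WT 4 (0.0871), old WT 7 (0.0698) or old WT 10 (0.0775). Gm129, a clock-controlled repressor also called Ciart, whose E-boxes are printed above, read 2.19, 2.14, 10.1, 1.33 and 0.69 CPM in young WT and 0.469, 0.356, 0.358, 1.39 and 0.588 CPM in old WT. Most of its young mean came from young WT 3. Arntl (0.25 ± 0.18), Dbp (-0.85 ± 0.50) and Per1 (-0.52 ± 0.41) were not called. Times of day of tissue collection are not given in the sources used here, so a part of collection time in these differences was not tested.

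Of 31 hepatocyte identity genes 6 rose and 2 fell (25.8% called, against 18.8% of all genes). Among the rises were Trf, which carries iron in plasma, and the transcription factor genes Esr1, Cebpa (0.33), Thrb (0.45) and Nr3c1 (0.32), and among the falls was the clock repressor Nr1d1. Rises numbered 2 without young WT 2 and also without either of old WT 1 and 4. They numbered 3 without young WT 1 or 4, without old WT 10 and with the 10 WT libraries alone, and falls numbered 5 without young WT 6. Albumin, Alb (-0.08 ± 0.17), the regulator Hnf4a (-0.09 ± 0.12) and transthyretin, Ttr (0.16 ± 0.12), were not called. Secreted proteins changed in both directions. Serpina6, the corticosteroid-binding globulin, read 83.3, 60.8, 107, 112 and 138 CPM in young WT and 462, 426, 474, 204 and 522 CPM in old WT, without overlap (2.06 ± 0.29, adjusted p = 0.000499). Mug1, a murinoglobulin protease inhibitor, fell from 3040 ± 904 to 1020 ± 279 CPM (-1.58 ± 0.29), also without overlap. Of 27 apolipoprotein and related genes 6 rose (22.2%, against 9.92% of all genes) and 3 fell (11.1%, against 8.91%). Apol9a (1.30 ± 0.23) and Apol7a (1.05 ± 0.23) were among the rises. Apoa1, the main protein of high density lipoprotein, fell (-0.69 ± 0.20) and was lost without young WT 2 (adjusted p = 0.069) or old WT 5 (0.057). Apoa4 fell by 1.57 ± 0.44 and was lost without young WT 1 (0.0615), young WT 2 (0.068), old WT 1 (0.0545), old WT 4 (0.0568) or old WT 5 (0.0565). The third fall was Abca1 (-0.34), and falls of the list numbered 1 without young WT 1, young WT 2 or old WT 1 and 0 without old WT 5.

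Complement and coagulation factors of hepatocyte origin had 9 rises (18.8%, against 9.92% of all genes) and 0 falls among 48. Mbl2, a mannose-binding lectin that starts the lectin pathway, read 210, 232, 267, 318 and 307 CPM in young WT and 445, 418, 426, 406 and 480 CPM in old WT, without overlap (log2 change 0.71 ± 0.12). Cfi, complement factor I, rose by 0.51 ± 0.13 and C4b by 0.42 ± 0.10. C3 (0.27 ± 0.12, adjusted p = 0.109) and F2, prothrombin (0.23 ± 0.09, adjusted p = 0.087), were not called. The summed list gave 27400 to 33700 CPM in young WT and 32600 to 37500 CPM in old WT, and rises numbered 5 without young WT 1 or old WT 10.

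Immunoglobulin transcripts, made by B lineage cells, rose in 13 of 17 tested with a median log2 change of 4.02. Only these 17 of 152 immunoglobulin genes had enough counts. A gene could pass that filter through the old WT or knockout libraries alone, so the share and the median do not describe the whole family. Their summed level was 5.74 to 13.6 CPM in young WT and 65.2 to 245 CPM in old WT. Ighm, the constant region of IgM, read 3.63, 2.53, 7.60, 6.81 and 5.17 CPM in young WT and 80.9, 33.7, 32.8, 73.4 and 68.0 CPM in old WT, with no overlap (3.49 ± 0.59, adjusted p = 0.00146). Igkc, the kappa light chain, rose by 4.02 ± 0.55, and Igj, the joining chain of secreted IgM and IgA, by 4.07 ± 0.68. In contrast the B cell surface markers were near the limit of counting, with Cd79a (0.65 ± 0.38) not called. Ms4a1, which encodes CD20, rose by 1.70 ± 0.52 and was lost without young WT 1 (adjusted p = 0.0839), young WT 2 (0.0787), old WT 1 (0.0688) or old WT 4 (0.101). Of 25 B and plasma cell genes 6 rose, a number that was 1 without young WT 1, young WT 2 or old WT 4, 2 without old WT 1 and 3 without young WT 4 or old WT 7. Since segments share sequence, the count over single segments is uncertain. The number of rises was 7 under limma voom, 8 with the 10 WT libraries alone and 24 with no filter on low counts.

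Chemokine ligands, which draw leukocytes into tissue, had 9 rises and 0 falls among 18 (median 0.71). Cxcl1, a neutrophil attractant, read 0.527, 0.763, 0.293, 0.452 and 1.12 CPM in young WT and 2.72, 2.28, 3.82, 5.13 and 3.57 CPM in old WT. Each old liver exceeded each young one (log2 change 2.50 ± 0.44). Cxcl16, the membrane-bound ligand of CXCR6, rose from 5.52 ± 1.03 to 9.34 ± 0.56 CPM (0.76 ± 0.12, adjusted p = 0.000984). Ccl2, the monocyte attractant, rose by 1.71 ± 0.51 and was lost without young WT 1 (0.0791), young WT 2 (0.0745), young WT 3 (0.0636), young WT 4 (0.0693), old WT 1 (0.055) or old WT 5 (0.0685). Cxcl9, an interferon-gamma target, was not called (1.40 ± 0.54, adjusted p = 0.0771) and passed without young WT 6 (0.00501), which at 32.5 CPM was the highest young liver, or old WT 7 (0.0419). Cxcl13, the B cell attractant, gave 0.57 ± 0.45 without a call. Among receptors 3 of 16 rose (18.8%, against 9.92% of all genes) and 2 fell (12.5%, against 8.91%). The rises were Cx3cr1, Ccr2 and Darc and the falls Ccbp2 and Ccrl1, with 1 rise without young WT 1, 2 or 3 or old WT 5 or 7. Cx3cr1 rose by 1.74 ± 0.41, and Ccbp2, a decoy receptor for inflammatory chemokines, fell by 1.10 ± 0.20.

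Markers of recruited and lipid-associated macrophages rose in 20 of 35 cases with 0 falls (median 0.92), and in 13 cases without young WT 1. Lgals1, galectin 1, read 4.55, 2.90, 4.43, 3.89 and 6.77 CPM in young WT and 36.8, 21.9, 39.5, 9.97 and 33.5 CPM in old WT, with old WT 7 lowest of its group (log2 change 2.66 ± 0.32, adjusted p = 0.000172). Gpnmb, a lysosomal glycoprotein of lipid-laden macrophages, gave 0.421, 0.611, 0.554, 0.392 and 0.345 CPM in young WT and 2.34, 1.07, 2.39, 17.3 and 1.76 CPM in old WT. Here old WT 7 was by far the highest, and without it the log2 change was 2.02 against 3.39 ± 0.69 with it. Trem2, a lipid receptor of the same cells, rose from 4.24 ± 0.53 to 7.21 ± 1.32 CPM (0.76 ± 0.14), and Itgax, which encodes CD11c, by 1.67 ± 0.29, both without overlap. The monocyte receptor Ccr2 (1.06 ± 0.36, adjusted p = 0.0485) kept its call only in the fits without young WT 6 or old WT 4, with 0.119, 0.111, 0.0725 and 0.111 without young WT 1, 2, 3 and 4 and 0.0805, 0.0934, 0.0727 and 0.0911 without old WT 1, 5, 7 and 10. The neutrophil genes S100a8 (0.96 ± 0.53) and S100a9 (0.92 ± 0.44) were not called.

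The resident Kupffer cell list had 1 rise and 1 fall among 22 (4.55% each, against 9.92% and 8.91% of all genes). Rises numbered 3 when young WT 3 or 6 or old WT 5 or 7 was left out. Falls numbered 0 when young WT 1, 3 or 4 or old WT 5, 7 or 10 was left out. Clec4f, the defining Kupffer cell lectin, read 64.6, 49.8, 101, 91.1 and 100 CPM in young WT and 106, 135, 51.4, 69.2 and 88.5 CPM in old WT, and the groups lay on top of each other (log2 change 0.15 ± 0.23). Timd4, a phosphatidylserine receptor of long-resident Kupffer cells, gave -0.34 ± 0.36, and Emr1, which encodes F4/80, 0.54 ± 0.31, neither called. The rise was Slc40a1, which hepatocytes and other cells also express, and the fall was Cd163, a haemoglobin scavenger receptor, at 9.98 to 25.9 CPM in young WT and 0.656 to 13.3 CPM in old WT (-1.86). Vsig4, a complement receptor, missed the threshold (0.74 ± 0.25, adjusted p = 0.0508) and passed when young WT 3 (0.0222), old WT 5 (0.0288) or old WT 7 (0.0444) was left out.

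Of 24 genes common to leukocytes 9 rose and 0 fell (median 0.58), with 4 rises without young WT 1 and 5 without young WT 2. Cd48, a leukocyte surface protein, rose from 1.75 to 3.85 CPM (1.15 ± 0.29) and Hcls1, a cytoskeletal adaptor, from 4.99 to 8.61 CPM (0.79 ± 0.19). Ptprc, which encodes CD45, was not called (0.63 ± 0.31, adjusted p = 0.166). T and NK cell genes had enough counts in 33 of 45 cases, with 7 rises (21.2%, against 9.92% of all genes) and 0 falls. Rises numbered 4 without young WT 1, 2 or 4 and 2 without old WT 5. Gzmb, a cytotoxic granule protease, read 0.211, 0.214, 0.456, 0.211 and 0.647 CPM in young WT and 0.719, 0.889, 1.10, 0.953 and 1.18 CPM in old WT, low levels without overlap (1.52 ± 0.37). Cd8a rose by 2.0 ± 0.54, carried by old WT 5 (3.46 CPM) and old WT 7 (3.37 CPM), and was lost without old WT 5 (0.0575). Among genes with too few counts for the fit, Gzmk had 1, 0, 3, 0 and 0 counts in young WT and 2, 2, 13, 10 and 17 in old WT (exact two-sided permutation test, p = 0.0238), and Pdcd1 had 1, 1, 0, 0 and 0 counts in young WT and 1, 0, 28, 14 and 13 in old WT (p = 0.0556).

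Interferon-stimulated genes rose in 13 of 76 cases with 0 falls (median 0.38), a share of 17.1% against the background of 9.92%, and 66 of the 76 log2 changes were above 0. Irf7, the factor that amplifies interferon production, read 14.2, 12.8, 17.5, 21.1 and 24.5 CPM in young WT and 35.2, 51.1, 40.5, 26.9 and 39.1 CPM in old WT (1.10 ± 0.18, adjusted p = 0.00121). Ly6e, a membrane protein that restricts viral entry, rose by 1.07 ± 0.24 without overlap. The much used reporters Isg15 (0.58 ± 0.27) and Ifit1 (0.56 ± 0.29) were not called. The count depended strongly on single libraries, and was 26 without young WT 6, 3 without young WT 2 or old WT 5, 4 without young WT 1, 6 without old WT 1, 7 without young WT 3 or old WT 10 and 8 without young WT 4 or old WT 4. Summed levels were 1630 to 2470 CPM in young WT, highest in young WT 6, and 2000 to 2880 CPM in old WT.

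MHC class II genes had no call among 11 tested with edgeR, of which 3 had an unadjusted p under 0.05, with a median log2 change of 0.43 and 11 of 11 above 0, and 1 of the 11 rose by DESeq2, by limma voom and in the fits without young WT 3, young WT 6 or old WT 10. Cd74, the class II invariant chain, read 35.4, 35.7, 94.4, 91.6 and 115 CPM in young WT and 108, 64.8, 97.0, 82.2 and 111 CPM in old WT. Young WT 1 and 2 were low and the other 3 young livers lay within the old range (log2 change 0.32 ± 0.31). Of 24 class I and proteasome genes 7 rose and 0 fell (median 0.07), with 4 rises without young WT 1 or old WT 5. Psmb10, an immunoproteasome subunit, rose by 0.93 ± 0.17 and H2-Q2 by 1.12 ± 0.28, while the classical H2-K1 (0.03 ± 0.11) and H2-D1 (0.05 ± 0.09) were not called. The H2-Q genes are near-identical copies, so the value of H2-Q2 is uncertain.

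Acute phase proteins, secreted by hepatocytes in inflammation, had 11 rises and 2 falls among 33 (median 0.32). Itih4, an inter-alpha-trypsin inhibitor chain, read 1290, 1330, 1420, 1770 and 1370 CPM in young WT and 2790, 2340, 2360, 2290 and 3670 CPM in old WT, without overlap (log2 change 0.91 ± 0.14). Saa2, serum amyloid A2, gave 4.74, 3.05, 7.89, 8.83 and 14.4 CPM in young WT and 13.6, 9.42, 30.0, 20 and 137 CPM in old WT, with old WT 10 far above the rest (2.45 ± 0.65). Without old WT 10 the adjusted p of Saa2 was 0.0623. Orm2, orosomucoid 2, rose by 1.96 ± 0.40 and kept its call in every leave-out fit. Lcn2, lipocalin 2, reached 63.4 CPM in old WT 7 and 141 CPM in old WT 10 and 12.1 to 21.7 CPM in the other old livers, against 7.80 to 20.5 CPM in young WT. Its call (1.71 ± 0.56, adjusted p = 0.042) was lost without young WT 1 (0.0645), 2 (0.0897), 3 (0.0559), 4 (0.0742) or 6 (0.0714) and without old WT 7 (0.0647) or old WT 10 (0.184). The falls were Serpina3n and Serpina3k (-0.53 and -1.33), the latter read at 6720, 7340, 7300, 7480 and 4120 CPM in young WT and 1400, 2880, 1540, 4290 and 3020 CPM in old WT. The number of rises was 7 without young WT 1 or 2 and 6 without old WT 10.

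NF-kappa-B and cytokine genes gave 8 rises (15.7%, against 9.92% of all genes) and 2 falls (3.92%, against 8.91%) among 51. Il7, a lymphocyte survival cytokine, rose from 0.326 ± 0.225 to 2.20 ± 0.65 CPM (log2 change 2.81 ± 0.59) without overlap, and Tlr2, a bacterial lipoprotein receptor, by 0.74 ± 0.19. Tnf rose by 1.43 ± 0.44 at under 1 CPM in each liver and was lost without young WT 1 (adjusted p = 0.095), young WT 2 (0.0886), young WT 4 (0.0839), old WT 1 (0.0647), old WT 4 (0.0747) or old WT 10 (0.0688). Il1b was not called (1.02 ± 0.44, adjusted p = 0.113). Il1r1, its receptor, fell from 61.4 ± 36.9 to 26.1 ± 2.81 CPM (-1.23 ± 0.31), and Tlr12 was the other fall.

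**Figure D5:**
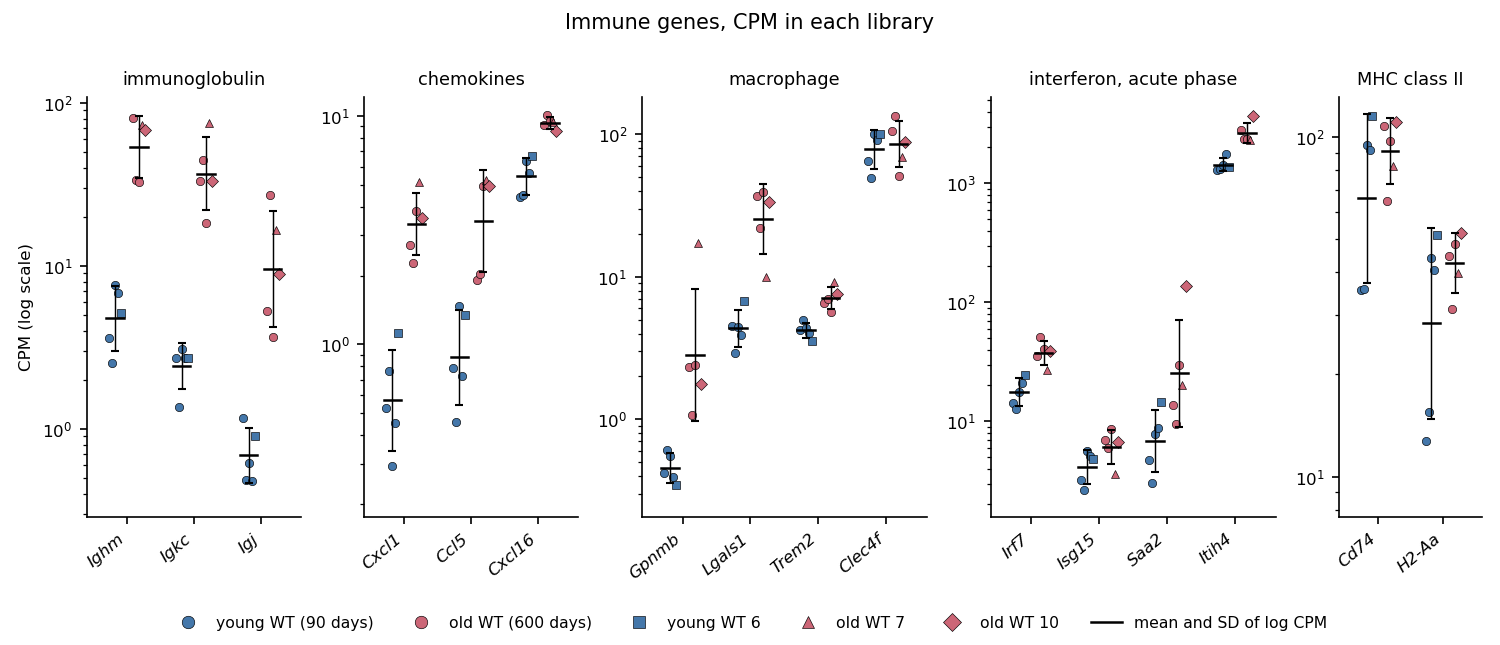
CPM (log scale) in each liver for immunoglobulin, chemokine, macrophage, interferon, acute phase and MHC class II genes, with young WT in blue and old WT in red. Lines are the mean and bars 1 SD of the log values, and squares, triangles and diamonds mark young WT 6, old WT 7 and old WT 10. The immunoglobulin genes, Cxcl1, Ccl5, Cxcl16, Gpnmb, Lgals1, Trem2, Irf7 and Itih4 do not overlap between the groups, whereas Clec4f, Isg15, Saa2, Cd74 and H2-Aa do.

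Endothelial genes had 0 rises and 4 falls among 31 (12.9%, against 8.91% of all genes). The falls were Stab1, Stab2, Flt1 and Lyve1. The list median was -0.38, and 25 of 31 log2 changes were under 0. Lyve1, a hyaluronan receptor of sinusoids and lymphatics, read 18.8, 12.4, 23.9, 14.1 and 11.2 CPM in young WT and 7.78, 8.07, 6.68, 11.7 and 7.68 CPM in old WT, and only young WT 6 fell below an old liver, old WT 7 (-0.94 ± 0.25). Pecam1, the general endothelial marker, was not called (-0.38 ± 0.15, adjusted p = 0.0862) and passed without young WT 2 (0.0428) or old WT 4 (0.0493). The summed endothelial level was 635 to 1090 CPM in young WT and 498 to 834 CPM in old WT, lowest in old WT 7 and old WT 10.

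Extracellular matrix genes were called at shares near those of all genes. Of 52 tested, 7 rose (13.5%, against 9.92% of all genes) and 4 fell (7.69%, against 8.91%). Col4a1 and Col4a2, the basement membrane collagens, fell by 0.83 ± 0.15 and 1.07 ± 0.17, and Hand2 and Reln were the other falls. Col4a2 read 23.3, 19, 23, 28.6 and 18.1 CPM in young WT and 11.8, 11.2, 12.1, 10.4 and 7.87 CPM in old WT. The fibril collagen Col3a1 rose from 10.3 ± 3.47 to 20.6 ± 6.74 CPM (1.01 ± 0.33, adjusted p = 0.0449) and kept its call only in the fits without young WT 6 or old WT 10, at 0.11, 0.0979, 0.0788 and 0.0616 without young WT 1, 2, 3 and 4 and 0.072, 0.0561, 0.121 and 0.0689 without old WT 1, 4, 5 and 7. Lrat, a marker of quiescent stellate cells, was not called (0.10 ± 0.23). Rises numbered 1 without young WT 1, 3 without young WT 3, 4 without young WT 2, young WT 4 or old WT 1, 5 or 7 and 12 without old WT 10, and falls 2 without young WT 4 or old WT 4, 7 or 10.

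Proliferation genes had 8 rises (21.1%, against 9.92% of all genes) and 0 falls among 38 (median 0.37). Rises numbered 4 without young WT 4 or old WT 5. Tk1, thymidine kinase, read 8.24, 9.40, 9.78, 10.3 and 7.98 CPM in young WT and 17.6, 17.2, 14.7, 15.2 and 11.2 CPM in old WT (log2 change 0.73 ± 0.13), while Top2a was not called (0.64 ± 0.27). Of 31 senescence and p53 genes 5 rose (16.1%, against 9.92% of all genes), namely Eda2r, Gadd45a, Phlda3, E2f1 and Ccng1. Gadd45a rose by 1.15 ± 0.28 and Ccng1 by 0.42 ± 0.09. Among bile duct genes 3 of 20 rose and 1, Krt18, fell. Prom1, a progenitor and duct surface protein, rose from 1.21 ± 0.20 to 8.34 ± 3.17 CPM (2.79 ± 0.48), whereas the duct keratins Krt19 (0.23 ± 0.48) and Krt7 (0.54 ± 0.32), Epcam (0.67 ± 0.36) and Sox9 (0.44 ± 0.47) were not called. The other rises were Muc1 and Spp1, and the number of rises was 1 without young WT 1 or old WT 5 or 7 and 5 without old WT 10. Of 77 ribosomal protein genes 1 rose (Rps2) and 1 fell (Rpl36), and of 31 endoplasmic reticulum stress genes 1 fell (Trib3).

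Some of the largest changes belonged to none of these groups. Ntrk2, the receptor TrkB for brain-derived neurotrophic factor, read 2.11, 1.34, 5.02, 1.48 and 4.61 CPM in young WT and 41.1, 64.4, 56.1, 53.8 and 30.0 CPM in old WT (log2 change 4.10 ± 0.48, adjusted p = 0.000125). Dmrta1, of the doublesex-related transcription factor family, gave 0.342, 0.489, 0.228, 0.271 and 0.474 CPM in young WT and 4.53, 5.19, 3.91, 4.25 and 5.62 CPM in old WT (3.70 ± 0.28, adjusted p = 6.53e-06). Both were separate in every liver, and the spread within each group of Dmrta1 was small. The X-linked Bhlhb9 fell from 15.3 ± 2.51 to 2.91 ± 0.77 CPM (-2.39 ± 0.23, adjusted p = 2.89e-05), again in every liver. Meg3, a maternally expressed non-coding RNA, fell by 2.58 ± 0.40, and its imprinted neighbour Rian also fell (-2.22). Sord, sorbitol dehydrogenase, rose from 838 ± 133 to 1320 ± 225 CPM (0.65 ± 0.13).

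Animals of the same age varied to a similar degree in both groups. The median SD of log2 CPM over the tested genes was 0.228 in young WT and 0.2 in old WT, and it was larger in old WT for 43.9% of genes.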

How the data were processed

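RNA-seq libraries were made from whole liver (TruSeq Stranded mRNA, single-end reads). Per the labels, the authors used CASAVA, TopHat2 2.0.11 with mm9 and DESeq2 1.18.1, and deposited raw HTSeq counts per Ensembl gene, the unit used here. The annotation release and the strand setting of the counting are not given in the sources used here, so overlapping antisense genes cannot be told apart. No columns of the authors' own comparisons were used. Symbols and mm9 positions came from GENCODE M1 for 37205 of 37991 identifiers, and promoters from RefSeq (GRCm38.p6).

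The deposited counts of 15 libraries were fitted with edgeR 4.0.16 (R 4.3.3, quasi-likelihood test, TMM scaling, filterByExpr), with old WT minus young WT as the contrast, Benjamini-Hochberg adjustment over 14258 genes and a threshold of 0.05. The SE was the log2 change divided by the square root of F. Counts are limited by depth. Each edgeR p sets the difference between the 2 ages against a spread between animals estimated from all 15 libraries, knockouts included. With the 10 WT libraries alone, 2202 genes were called in place of 2685. Genes under the filter were tested by an exact two-sided permutation test on log2(CPM + 0.1).

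Named genes were the 12 largest rises and falls by log2 change and by CPM difference among called genes of at least 1 CPM without overlap, up to 3 such members per list, and key genes of each list. Other genes were named after their values were seen. The members and lists were chosen with earlier results of these data known. Of the list entries, 10 matched no gene (among them Hmgcs1 and Cetp). Alternatives were DESeq2 1.42.0, limma 3.58.1 voom, RLE and upper quartile scaling, other count filters, the 10 WT libraries alone, a replicate block and leaving out each library. The code was tested on simulated data. Some genes of the lists are counted in the list values but not reported here by name.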

Additional observations from a re-analysis of the deposited data

Results flagged for a closer look

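In 22 of 328 gene and group combinations of 5 livers, 1 liver lay far from the other 4 by Dixon's gap test. Chance alone gives about 1 in 20 such groups, and 8 of the 22 concerned old WT 7, 7 old WT 10 and 4 young WT 6.

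In old WT 7 the urinary protein genes were lowest, with Mup10 at 2.82 CPM against 128 to 178 CPM, Mup11 at 0.257 CPM against 7.01 to 13.4 CPM and Mup7 at 0.11 CPM against 4.19 to 7.87 CPM. The same liver was lowest for Hao2 (28.7 CPM against 72.1 to 94.2 CPM), Gclc (305 CPM against 463 to 540 CPM), Serpina6 (204 CPM against 426 to 522 CPM) and Slc10a1 (489 CPM against 624 to 676 CPM). It was highest for Gpnmb, at 17.3 CPM against 1.07 to 2.39 CPM. Old WT 10 was highest for A1bg (5090 CPM against 1370 to 1950 CPM), Cyp4a10 (3280 CPM against 1640 to 1880 CPM), Cyp4a14 (7730 CPM against 3520 to 4280 CPM), Prlr (892 CPM against 447 to 545 CPM) and the mesothelial gene Lrrn4 (4.45 CPM against 2.57 to 2.67 CPM). It was lowest for Mug1 (529 CPM against 1090 to 1230 CPM) and Meg3 (0.0735 CPM against 0.298 to 0.427 CPM).

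Young WT 6 was lowest for Cps1 (3410 CPM against 7810 to 9880 CPM), Cyp4a32 (24.8 CPM against 47.3 to 58.5 CPM), Serpina4-ps1 (0.56 CPM against 2.21 to 3.13 CPM) and Rps2 (113 CPM against 163 to 178 CPM). Single genes stood apart in 3 other young livers. These were Esr1 in young WT 1 (14.4 CPM against 31.3 to 41.6 CPM), Igkc in young WT 2 (1.37 CPM against 2.72 to 3.1 CPM) and Igkv5-39 in young WT 3 (0.261 CPM against 0.0263 to 0.0611 CPM). The part of these livers in the comparison was examined only by leaving each out.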

How the results depend on the processing

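Of 164 named genes called, 120 kept the call whichever library was left out, 0 lost it under DESeq2, 11 under limma voom, 13 with the 10 WT libraries alone and 13 without old WT 7. With the replicate block 82 lost it, and 76 kept it under every alternative. Of 116 not called, 31 passed under at least 1 alternative. Leaving out 1 library gave 1748 to 3284 calls over all genes (899 to 1751 higher, 849 to 1533 lower), with the lowest count and the lowest count of higher calls without young WT 1. In the metabolic lists it gave 161 to 253 calls (97 to 149 higher, 60 to 117 lower) and in the immune lists 64 to 134 (60 to 125 higher). The other tools, scalings and filters gave 2200 to 3249 calls over all genes. Beside the values given with each list, some list counts moved by over 1.5 times under 1 of these. limma voom gave 1 rise of B and plasma cell genes (from 6), 3 of T and NK cell genes (from 7), 5 of lipid droplet genes (from 3) and 5 falls of transporters (from 3). The 10 WT libraries alone gave 5 rises of complement genes (from 9), 8 of interferon genes (from 13), 1 of glucocorticoid and metallothionein genes (from 3), 3 falls of P450 genes (from 6) and 2 of periportal genes (from 4). DESeq2 gave 12 rises of matrix genes (from 7), 8 of senescence genes (from 5), 5 of haem and iron genes (from 3) and 8 falls of lipid droplet genes (from 5). No filter on low counts gave 3 rises of B and plasma cell genes, 1 of chemokine receptors (from 3), 5 of complement genes and 3 of urea cycle and amino acid genes (from 6), and 3 falls of lipid droplet and of oxidative phosphorylation genes (from 5 and 6) and 1 of glutathione genes (from 3). RLE scaling moved the median log2 change by -0.005 and upper quartile scaling by 0.007.

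The groups share only the replicate numbers 1 and 4, whose libraries deviated together with correlations of -0.0312 and 0.077. Pairs of unlike number ran from -0.247 to 0.222, so these 2 values cannot show whether the numbers pair the animals. With the replicate block, 899 genes were called (487 higher, 412 lower), 125 in the metabolic lists (69 higher, 56 lower) and 26 in the immune lists (19 higher), with 1 rise of cholesterol synthesis genes, 6 of immunoglobulin genes and 3 of recruited macrophage genes. Of the 899, 812 were also called without the block, all in the same direction. The replicate numbers 3, 7 and 10 each occur in only 1 library, so each of these libraries takes a block term of its own. With the block, young WT 3, old WT 7 and old WT 10 thus add nothing to the contrast, and the calls rest on the other libraries. Young WT 2, young WT 6 and old WT 5 share their numbers only with knockout libraries. In this fit the knockouts therefore entered the estimate of the age difference itself. Lcn2 had a log2 change of -0.06 with the block (adjusted p = 0.934 in edgeR) in place of 1.71. Old WT 7 and old WT 10, its highest old livers, are among the libraries that drop out. Whether this accounts for the whole difference was not tested. Depth limits the genes of under about 1 CPM, which include most lymphocyte receptors.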

Other observations

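The imprinted fetal transcript H19, which had too few counts for the fit, read 6, 0, 1, 3 and 3 counts in young WT and 5, 5, 9, 163 and 8 counts in old WT (exact two-sided permutation test, p = 0.0159). Most of the old counts came from old WT 7, and without that library the exact permutation p was 0.0397. Cdkn2a, the senescence-associated cell cycle inhibitor, had 11 counts in all young WT libraries and 35 in all old WT libraries, with a p of 0.0238 in the same exact test, and Hspa1a had 7 and 18 (exact permutation p = 0.0635).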
